A study of Homo sapiens with 12 samples.

Results

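Integrin chains were followed in KMS11 myeloma cells with high and low MMSET. The set held 10 of the 18665 genes with a probe of their own on the array. These were 6 alpha chains (ITGAL, ITGA4, ITGA6, ITGAE, ITGAV and ITGAM) and 4 beta chains (ITGB1, ITGB2, ITGB3 and ITGB7). The set was chosen by gene name, but with earlier results of these data known. Its calls are therefore set beside the share over all probes as a description only. Every one of their 16 probes was taken, and 10 of them, from 8 genes, could be tested because some line had a detection p-value under 0.05 on each of its 3 arrays. KMS11 is a myeloma line with the t(4;14) translocation, and TKO1 and TKO2 are 2 clones of it in which the overexpressed MMSET allele was inactivated (MMSET-low). NTKO is a KMS11 line in which the wild type MMSET allele was inactivated and the rearranged one kept (MMSET-high), and WT is the parental KMS11 line, which carries both. All 4 lines share the KMS11 background and the growth medium, no treatment is named, and each line was hybridised to 3 arrays, 12 in all. MMSET, now named NSD2, is a histone methyltransferase.

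Integrins are heterodimers of 1 alpha and 1 beta chain that tie a cell to other cells or to the extracellular matrix, and a chain reaches the surface only when paired. The beta chain ITGB2 pairs with ITGAL and ITGAM on leukocytes, ITGB7 with ITGA4 and ITGAE, ITGB1 with ITGA4, ITGA6, ITGAV and many others, and ITGB3 with ITGAV. Myeloma cells are known to hold to bone marrow stroma through ITGA4 with ITGB1 or ITGB7. The arrays measured messenger RNA of each chain, not heterodimers at the surface.

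NSD2 itself differed in the direction of the labels, with log2 intensity 5.67 ± 0.23 in TKO (SD, n = 6), against 6.27 ± 0.17 in NTKO and 6.36 ± 0.19 in WT (SD, n = 3 each). The difference was -0.59 ± 0.17 for TKO minus NTKO and -0.69 ± 0.17 for TKO minus WT (SE; limma, adjusted p = 0.0166 and 0.0104). By clone, TKO2 passed against NTKO and WT (limma, adjusted p = 0.0176 and 0.0118). TKO1 did not, with differences of -0.48 and -0.58 (limma, adjusted p = 0.0918 and 0.0684). In TKO the NSD2 probe lay near background, where differences are compressed. The mean exported intensity lay between 181 and 299.5 on the 12 arrays, and arrays of a line correlated at 0.984 to 0.995 except in NTKO. There, replicate 2 correlated at 0.945 to 0.948 with the other NTKO arrays and at 0.974 to 0.978 with the WT arrays, so counts and member results that rest on NTKO are also given without it. That setting raised the calls over all probes too, to 45.7% in TKO minus NTKO, 24% in TKO minus WT and 32.8% in NTKO minus WT. Of 10 plasma cell markers 8 were detected on all TKO arrays and 9 on all NTKO and WT arrays, with SLAMF7 detected on no array and CD38 on no TKO array. Of 8 markers of T and NK cells CD247 alone was detected on all arrays, CD3D, CD3E and CD3G were not, and the summed intensity ran from 231 to 257 in TKO, 286 to 363 in NTKO and 333 to 353 in WT. Of 3 erythroid markers with a probe HBB alone was detected on all arrays, and the sum ran from 190 to 318 in TKO, 91.1 to 103 in NTKO and 129 to 135 in WT. The part of these markers in the results was not tested. Fewer cells with a transcript and less transcript per cell cannot be told apart in such RNA, and no label tells if the replicates of a line came from separate cultures, so the p-values may rest on technical spread alone.

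In the TKO clones 2 alpha chains were at higher level and 1 alpha and 1 beta chain at lower level than in NTKO and WT. NTKO and WT are single lines, so loss of the overexpressed allele and other differences between lines cannot be told apart. In TKO minus NTKO, 5 of 10 tested probes passed (limma, Benjamini-Hochberg adjusted p under 0.05 over 15596 probes), against 27.5% of all probes tested. The 2 higher probes were those of ITGAL and ITGA4 (13.8% of all probes were higher), and the 3 lower ones those of ITGA6 and both of ITGB1 (13.7% were lower). The same 5 probes passed in TKO minus WT with the same signs, where 15.8% of all probes did, 5.87% higher and 9.93% lower. The comparisons share the TKO arrays. In each of them 4 of the 10 probes had TKO arrays that did not overlap the other line, those of ITGAL, ITGA4 and ITGB1, beside 21.1% and 23.6% of all probes, and in NTKO minus WT 3 did so, beside 24.4%. The median difference of the 10 probes was -0.08 against NTKO and 0.07 against WT on the log2 scale, beside 0.06 and 0.04 over all probes. Between the clones TKO1 and TKO2 no member passed in limma, against 0.718% of all probes. At so low a share, 0 of 10 says nothing particular about the members. The lowest unadjusted limma p-values of members were 0.068 for ITGA4 and 0.0687 for ITGB7. No member passed the methods' t-test at its threshold, which 116 probes passed. Without NTKO replicate 2 the counts were 6 of 10 against NTKO, beside 45.7% of all probes, and 5 of 10 against WT, beside 24%.

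**Figure D1:**
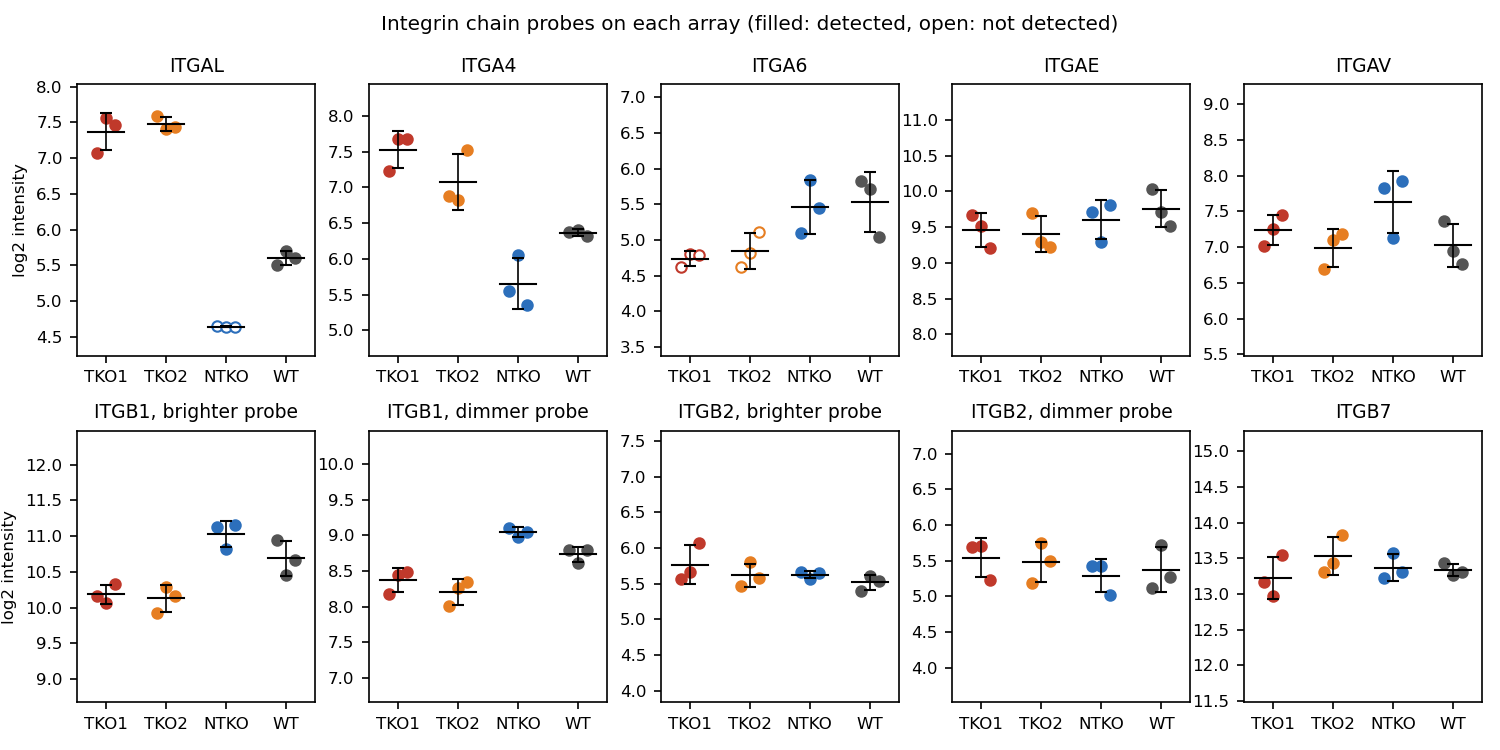
Log2 intensity (y axis) of the 10 tested integrin probes on each array of TKO1, TKO2, NTKO and WT (x axis), 3 points per line, filled where detected, with the line mean as a bar and the SD as an error bar. All panels span the same log2 range around their own middle. ITGAL and ITGA4 are highest in both TKO clones, and both ITGB1 probes are lowest there.

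Of the members, ITGAL differed most. It pairs with ITGB2 as LFA-1, which binds ICAM molecules on other cells (gene at chr16:30472742-30523185, GRCh38.p14). Its log2 intensity was 7.07, 7.56 and 7.47 in TKO1 and 7.60, 7.41 and 7.44 in TKO2. It was 4.64, 4.64 and 4.63 in NTKO and 5.50, 5.70 and 5.60 in WT. No array of NTKO detected it, all others did, and no 2 of the groups TKO, WT and NTKO overlapped. Against NTKO the level in TKO was at least 5.29-fold higher, computed against the lowest intensity detected on the NTKO arrays, with a fitted difference of 2.79 ± 0.15 (SE; limma, adjusted p = 2.67e-09). Against WT it was 3.54-fold higher, a difference of 1.83 ± 0.15 (limma, adjusted p = 4.18e-07). ITGAL in WT lay near background, where differences are compressed, so this fold may be understated. The order of ITGAL ran from TKO over WT to NTKO. NTKO lay below WT by 0.96 on the log2 scale, at least 1.49-fold (limma, adjusted p = 0.00467), and it was the only member to pass in NTKO minus WT, where 7.2% of all probes passed. TKO1 and TKO2, neighbours at the top, did not differ beyond their spread (difference -0.11, 95% interval -0.49 to 0.27). ITGAL alone passed in each of the 4 pairs of a TKO clone and an MMSET-high line (limma, adjusted p = 7.42e-06), against 4.41% of all probes. Without NTKO replicate 2 the ITGAL difference between TKO and NTKO was 2.79 as well (limma, adjusted p = 9.76e-10), but ITGAL was then no longer the one member past the threshold. ITGA4 and the brighter ITGB1 probe also passed in all 4 pairs (adjusted p = 0.0375 and 0.0387), beside 6.04% of all probes, and 4 of 10 members passed in NTKO minus WT, beside 32.8%.

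ITGA4, the alpha chain of VLA-4 that binds VCAM1 and fibronectin, followed the same direction at a smaller size (gene at chr2:181457205-181538940, GRCh38.p14). Its log2 intensity was 7.23, 7.68 and 7.68 in TKO1 and 6.88, 6.82 and 7.52 in TKO2. It was 5.55, 6.06 and 5.36 in NTKO and 6.38, 6.41 and 6.31 in WT, detected on every array. The 6 TKO arrays lay above all NTKO and WT arrays. TKO was 3.14-fold above NTKO, a difference of 1.65 ± 0.20 (SE; limma, adjusted p = 1.63e-05), and 1.91-fold above WT, a difference of 0.94 ± 0.20 (limma, adjusted p = 0.00387). ITGA4 in NTKO lay near background, where differences are compressed, so the 3.14-fold may be understated. The NTKO arrays all lay below the WT arrays, by 0.71 ± 0.23, which did not pass (limma, adjusted p = 0.074), and passed without NTKO replicate 2 at a difference of -0.92 (limma, adjusted p = 0.00387). TKO minus NTKO was 1.86 without that array (adjusted p = 8.63e-07). TKO1 averaged 7.53 and TKO2 7.08, a difference of 0.45 with an interval from -0.04 to 0.95.

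Promoter sequence is shown for ITGA4 and its 2 beta partners, since MYB, a transcription factor of blood cells, had the highest correlation with ITGA4 across the arrays. RefSeq windows from 250 bases before to 50 after a transcript start (GRCh38.p14) were found for 7 of the 10 genes, 10 windows in all, and not for ITGAL, ITGB2 and ITGB3. They were searched on both strands for TAACNG, the MYB core, TGTGGT, the RUNX core, and GGAAGT, a core of the ETS family member SPIB, all chosen after the levels of these factors were seen. These letters stand in 20.8%, 13.1% and 22.8% of all 35116 such windows. The bases printed lie before the first base of the gene, on the gene's strand, with matches in capitals.
ITGA4, chr2:181457136-181457204: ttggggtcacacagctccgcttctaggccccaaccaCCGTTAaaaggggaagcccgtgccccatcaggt
ITGB1, minus strand, chr10:32958231-32958480: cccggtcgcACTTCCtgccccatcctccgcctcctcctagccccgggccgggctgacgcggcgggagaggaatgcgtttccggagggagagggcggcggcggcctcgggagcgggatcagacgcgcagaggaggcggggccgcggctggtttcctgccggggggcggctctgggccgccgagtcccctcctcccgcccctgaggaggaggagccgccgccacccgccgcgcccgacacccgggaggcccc
ITGB7, minus strand, chr12:53207252-53207501: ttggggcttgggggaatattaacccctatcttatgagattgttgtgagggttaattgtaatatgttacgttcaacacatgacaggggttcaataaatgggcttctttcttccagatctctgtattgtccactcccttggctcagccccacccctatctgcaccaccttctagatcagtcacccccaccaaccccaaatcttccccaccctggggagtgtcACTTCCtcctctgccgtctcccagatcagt
The ITGA4 window held 1 match, CCGTTA, the MYB core read on the other strand, 214 bases before the transcript start of that window. The ITGB1 and ITGB7 windows shown held 1 match each, ACTTCC, the GGAAGT core on the other strand, at 241 and 30 bases before the start. A second ITGB1 window, not shown, held GGAAGT 212 bases before its own start. Among the windows not shown, ITGA6, which was lower in TKO, held the MYB core 28 bases before a start. Its 2 windows overlap and share the same RUNX core, which lies after the start of the first and 237 bases before that of the second. ITGAV held 2 GGAAGT cores in 1 of its 2 windows, ITGAM held 1 RUNX core, and ITGAE held none of these letters. A match is a description of letters and was not tested as a site.

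ITGA6, the laminin-binding alpha chain, was at the edge of detection (gene at chr2:172427336-172506459, GRCh38.p14). The tested probe read 4.62, 4.80 and 4.79 in TKO1 and 4.62, 4.82 and 5.10 in TKO2, detected on 0 of 6 arrays. It read 5.09, 5.84 and 5.45 in NTKO and 5.83, 5.72 and 5.04 in WT, detected on all of them. The highest TKO array overlapped the lowest NTKO and WT arrays. The probe entered the test only through NTKO and WT, where it was higher, so the detection filter favoured a difference in this direction. TKO was at least 1.29-fold below NTKO and at least 1.35-fold below WT, with fitted differences of -0.67 and -0.74 (SE 0.19 each; limma, adjusted p = 0.0173 and 0.0152). Neither passed without background correction, at differences of -0.74 and -0.84 (adjusted p = 0.0893 and 0.0825). The call against NTKO did not pass without NTKO replicate 3 (-0.68, adjusted p = 0.0535), and the call against WT did not pass without WT replicate 1 (-0.58, adjusted p = 0.114) or 2 (-0.64, adjusted p = 0.089). The ITGA6 difference from NTKO was -0.47 without NTKO replicate 2 (adjusted p = 0.0493). Of the 2 other ITGA6 probes neither was tested.

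ITGAV, the alpha chain of vitronectin receptors, was brightest on 2 of the NTKO arrays (gene at chr2:186590056-186680901, GRCh38.p14). It read 7.01, 7.26 and 7.45 in TKO1, 6.69, 7.10 and 7.19 in TKO2, 7.83, 7.13 and 7.93 in NTKO and 7.36, 6.95 and 6.76 in WT. NTKO replicates 1 and 3 were above all other arrays, and replicate 2 lay among them. TKO minus NTKO was -0.51 ± 0.20 (SE; limma, adjusted p = 0.0736), and without NTKO replicate 2 it was -0.77 and passed (adjusted p = 0.00299). TKO minus WT was 0.09, with an interval from -0.34 to 0.53. NTKO minus WT was 0.61 ± 0.24 (adjusted p = 0.13), and 0.86 without that array (adjusted p = 0.0045).

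ITGAE, the alpha chain that binds E-cadherin (gene at chr17:3714628-3801188, GRCh38.p14), was detected on every array and passed in no comparison. It read 9.67, 9.52 and 9.20 in TKO1, 9.69, 9.30 and 9.23 in TKO2, 9.71, 9.29 and 9.81 in NTKO and 10.04, 9.72 and 9.52 in WT, with overlap between all groups. TKO minus NTKO was -0.17, with an interval from -0.53 to 0.19, and TKO minus WT was -0.32, from -0.68 to 0.04. ITGAM, the alpha chain of the complement receptor CR3 on myeloid cells, and ITGB3, the beta chain of platelets, were not detected on any array.

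Among the beta chains, ITGB1, the most widely shared partner, was lower in TKO by both of its tested probes (gene at chr10:32900318-32958230, GRCh38.p14). The brighter probe read 10.17, 10.06 and 10.33 in TKO1 and 9.93, 10.29 and 10.17 in TKO2, against 11.13, 10.81 and 11.15 in NTKO and 10.95, 10.46 and 10.66 in WT. The dimmer probe read 8.18, 8.45 and 8.48 in TKO1 and 8.01, 8.26 and 8.35 in TKO2, against 9.10, 8.97 and 9.05 in NTKO and 8.80, 8.62 and 8.80 in WT. For both probes the 6 TKO arrays lay below all NTKO and WT arrays. The brighter probe was 1.83-fold lower in TKO than in NTKO (difference -0.87 ± 0.14, SE; limma, adjusted p = 0.000259) and the dimmer probe 1.68-fold lower (-0.75 ± 0.13, adjusted p = 0.000544). Against WT both were lower, 1.45-fold (-0.53 ± 0.14, adjusted p = 0.0159) and 1.36-fold (-0.45 ± 0.13, adjusted p = 0.0298). The differences from NTKO were -0.99 and -0.79 without NTKO replicate 2 (adjusted p = 2.36e-05 and 0.000186). The WT calls rest on few arrays. The brighter probe did not pass without WT replicate 1 (-0.40, adjusted p = 0.123) or 3 (-0.55, adjusted p = 0.0587). For the dimmer probe the call was lost without any 1 WT array and without TKO1 replicate 1 or TKO2 replicate 1, at adjusted p from 0.0581 to 0.135. The other 2 ITGB1 probes were detected on no array.

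ITGB2, the beta chain of leukocyte integrins (gene at chr21:44885953-44928815, GRCh38.p14), was dim and passed in no comparison. Its brighter probe read 5.57, 5.66 and 6.07 in TKO1, 5.48, 5.80 and 5.58 in TKO2, 5.66, 5.57 and 5.65 in NTKO and 5.40, 5.61 and 5.54 in WT. TKO minus NTKO was 0.07, with an interval from -0.26 to 0.39, and 0.22 for the dimmer probe. ITGB7, which marks gut-homing lymphocytes and is carried by myeloma cells (gene at chr12:53191323-53207251, GRCh38.p14), read 13.17, 12.97 and 13.54 in TKO1, 13.32, 13.44 and 13.83 in TKO2, 13.22, 13.58 and 13.31 in NTKO and 13.43, 13.27 and 13.32 in WT. The groups overlapped, and TKO minus NTKO was 0.01, with an interval from -0.28 to 0.29. The sign of the ITGB7 difference turned with the scaling (-0.22 after median centring), without passing.

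**Figure D2:**
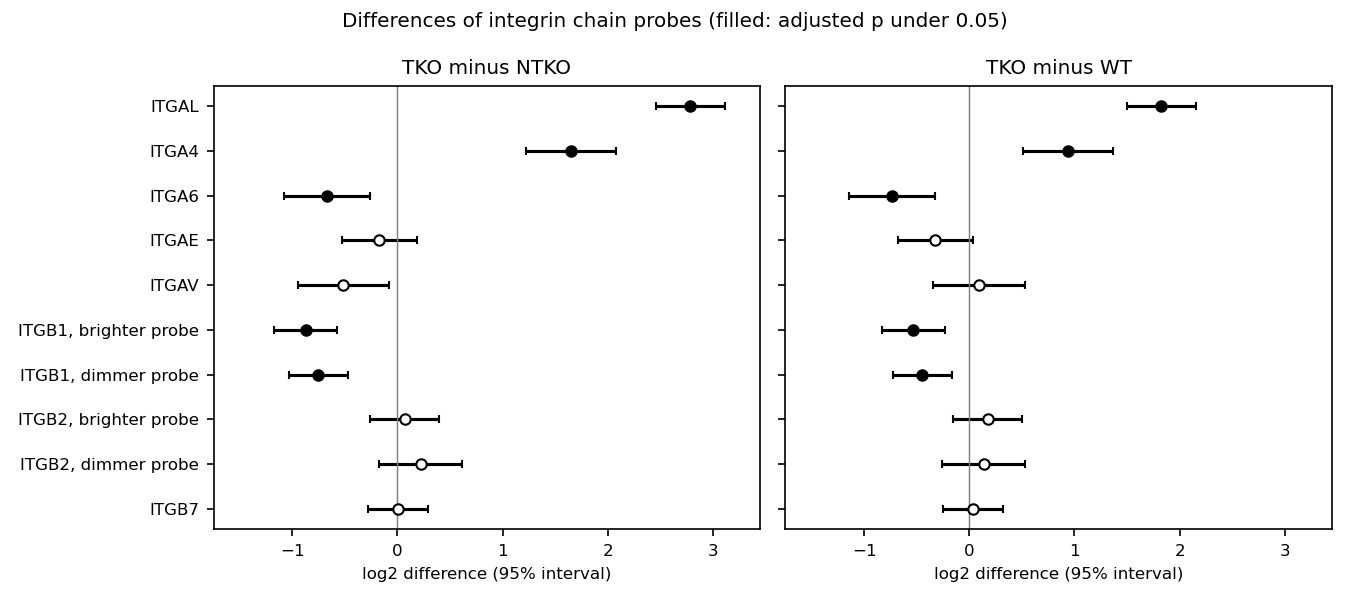
Log2 difference (x axis) of each tested integrin probe, TKO minus NTKO on the left and TKO minus WT on the right, with the 95% interval of the limma fit as a bar and filled points for an adjusted p under 0.05. ITGAL lies at 2.79 and 1.83, ITGA4 at 1.65 and 0.94, and both ITGB1 probes lie below 0 in both comparisons.

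Each alpha chain was then set against its beta partner on the same array. The difference of log2 intensities cannot be read as a ratio of chains, since probes differ in brightness, but its change between lines says whether partners moved by unequal amounts. For 6 pairs with both chains tested, the change was compared between the 6 TKO arrays and the 3 arrays of NTKO or WT by a two-sided exact permutation test, whose smallest possible p is 0.0238, with adjustment over the 6 pairs.

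ITGAL rose against ITGB2. The alpha minus beta value, relative to the WT mean, was 1.42, 1.82 and 1.31 in TKO1 and 2.04, 1.53 and 1.78 in TKO2, against -1.10, -1.01 and -1.10 in NTKO and 0.02, 0.01 and -0.02 in WT. No TKO array overlapped NTKO or WT, and the change was 2.72 against NTKO and 1.65 against WT (exact permutation p = 0.0238 each, adjusted p = 0.0476 and 0.0357). ITGAL read at least 7.07 in TKO and at most 5.70 in WT, and NTKO lay lower still. The brighter ITGB2 probe ran only from 5.40 to 6.07 over all arrays, so ITGAL alone fixed this smallest possible p. The p of this pair therefore adds no support of its own. Since no NTKO array detected ITGAL, the measured 2.72 stands for a bound, at least 2.33 with the ITGAL fold at its own bound and ITGB2 as measured. ITGB2 lay near background in all lines, where differences are compressed, so its own change may be understated. ITGA4 rose against both of its partners, by 2.52 against ITGB1 and by 1.64 against ITGB7 in TKO minus NTKO (exact permutation p = 0.0238, adjusted p = 0.0476 each), and by 1.47 and 0.90 in TKO minus WT (adjusted p = 0.0357 each). In the ITGA4 and ITGB1 pair the alpha chain was higher and the beta chain lower in TKO, without overlap in either chain. The smallest possible p of that pair was therefore fixed by the single chains and adds no support of its own. In the ITGA4 and ITGB7 pair the beta chain changed by 0.01 and 0.04. Both pairs share ITGA4, and after adjustment a pair at the smallest p passes only where other pairs reach it too.

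ITGA6 and ITGB1 were both lower in TKO. No TKO array detected ITGA6, so its change against ITGB1 has only a bound, at most 0.51 against NTKO and at most 0.10 against WT, and no sign is given. ITGAV rose against ITGB1 by 0.62 in TKO minus WT (exact permutation p = 0.0238, adjusted p = 0.0357), where ITGB1 was lower and ITGAV differed by 0.09, and by 0.36 in TKO minus NTKO, which did not pass (p = 0.0476, adjusted p = 0.0714). ITGAE and ITGB7 changed by -0.18 and -0.36 (exact permutation p = 0.643 and 0.31). These calls lie at the edge of what 6 against 3 arrays can show. Leaving out any 1 TKO array, or any 1 array of the compared line, left no pair past the threshold. For the pairs that had passed, adjusted p then ran from 0.0536 to 0.143 and each change kept its sign. Fewer arrays allow fewer splits and raise the smallest possible p, so these lost calls say nothing on stability. Without NTKO replicate 2 the 3 changes against NTKO were 2.75, 2.85 and 1.75 (adjusted p = 0.107 each).

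**Figure D3:**
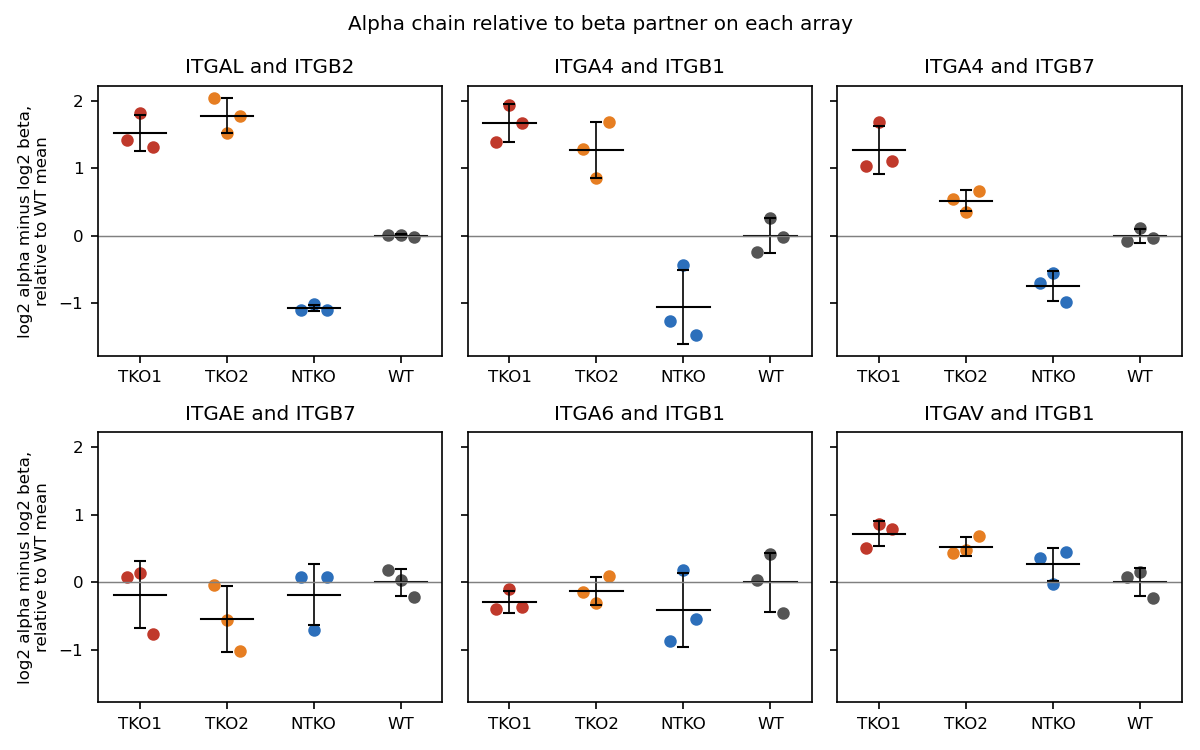
Log2 intensity of the alpha chain minus that of the beta partner on each array, relative to the mean of the WT arrays (y axis), for 6 pairs, with 3 points per line (TKO1, TKO2, NTKO and WT on the x axis), the line mean as a bar and the SD as an error bar. For ITGAL with ITGB2 and for ITGA4 with ITGB1 or ITGB7 all TKO arrays lie above all NTKO and WT arrays.

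The other genes of integrin biology were taken by name from 6 lists, each gene by its brightest tested probe. Over all 9857 genes tested so, 29% passed in TKO minus NTKO (13.8% higher and 15.2% lower) and 17.1% in TKO minus WT (6.3% higher and 10.8% lower). Of 16 other integrin chains 4 were tested. ITGB8, a beta chain that binds latent TGF-beta, was at least 1.17-fold higher in TKO than in NTKO, where no array detected it (limma, adjusted p = 0.00923), and ITGA2, a collagen-binding chain, was at least 1.06-fold lower (adjusted p = 0.0116). Neither passed without background correction (adjusted p = 0.108 and 0.209). ITGB5, a partner of ITGAV, averaged 11.29 in TKO, 10.98 in NTKO and 10.57 in WT and passed against WT (0.72, adjusted p = 0.0289), but not after median centring (adjusted p = 0.204). Its dimmer tested probes also passed against WT (0.64 and 0.65, adjusted p = 0.00761 and 0.0116), and neither passed against NTKO (adjusted p = 0.341 and 0.276). ITGA3 differed by less than 0.01 from both lines. With NTKO replicate 2 left out 5 chains were tested, with 1 higher and 2 lower against NTKO and 1 higher and 1 lower against WT, including ITGA2, lower against WT (-0.32, adjusted p = 0.0289).

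Of 19 tested activators and adaptors 7 were higher and 5 lower in TKO than in NTKO, and 3 were higher and 6 lower than in WT. FERMT2, a kindlin that activates integrins from inside the cell, was detected on 0 of 6 TKO arrays and on all NTKO and WT arrays. It was at least 3.40-fold lower in TKO than in NTKO (log2 intensity 4.66 against 6.86; limma, adjusted p = 9.05e-09) and at least 2.35-fold lower than in WT. Of its relatives, FERMT3, the kindlin of blood cells, was higher in TKO by 0.73 and by 0.96 against NTKO and WT (adjusted p = 0.00612 and 0.0011). FERMT1 was higher by 1.30 against NTKO (adjusted p = 0.000544) and by 0.57 against WT, which did not pass (adjusted p = 0.104). These 2 genes were chosen after their values were seen. CYTH1, a cytohesin that binds the tail of ITGB2, averaged 11.14 in TKO, 9.65 in NTKO and 10.21 in WT (TKO minus NTKO 1.49, adjusted p = 1.34e-05). VCL (vinculin) and ZYX (zyxin), proteins of focal adhesions, were lower in TKO. VCL differed by -1.68 from NTKO and by -0.73 from WT (adjusted p = 3.4e-05 and 0.0316), and ZYX by -0.97 and -0.93 (adjusted p = 0.00134 and 0.00264). The dimmer VCL probe differed by -0.56 from NTKO (adjusted p = 0.0326) and by -0.17 from WT (adjusted p = 0.593).

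Of 15 tested kinases and GTPase regulators 2 were higher and 5 lower in TKO than in NTKO, and 2 were higher and 3 lower than in WT. PTK2, the focal adhesion kinase, averaged 6.48 in TKO, 7.36 in NTKO and 7.41 in WT (TKO minus NTKO -0.88, limma, adjusted p = 0.00158). VAV3 and BCAR1, an exchange factor and a scaffold downstream of integrins, were detected on no TKO array by their brightest tested probe and were at least 1.67-fold and 1.18-fold lower than in NTKO (adjusted p = 1.21e-05 and 0.00956). The dimmer VAV3 probe was detected on 1 of 6 TKO arrays and differed by -0.41 from NTKO (adjusted p = 0.0274) and by -0.34 from WT (adjusted p = 0.088). VAV1, the exchange factor of blood cells, was higher in TKO by 0.83 than in NTKO (adjusted p = 0.00097) and by 0.52 than in WT (adjusted p = 0.0321, and 0.207 after median centring).

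Of 8 tested counter-receptors and ligands 0 were higher and 2 lower in TKO than in NTKO, and 3 were lower than in WT. JAM2 and JAM3, adhesion molecules bound by ITGA4 with ITGB1 and by ITGAM with ITGB2, were both lower. JAM2 was at least 2.77-fold lower than in NTKO and at least 4.78-fold lower than in WT, and JAM3 differed by -0.95 and -1.29 (limma, adjusted p = 0.000198 and 7.11e-06 for JAM2, 0.000228 and 1.46e-05 for JAM3). Of 9 tested membrane partners 3 were higher and 2 lower against NTKO, and 2 were higher and 1 lower against WT. Of the tetraspanins, which hold integrins in membrane clusters, CD9 was lower in TKO, with a difference of -1.69 from both lines (adjusted p = 4.44e-07 and 5.85e-07). The dimmer CD9 probe went the other way, by 0.22 and 0.39, without passing (adjusted p = 0.223 and 0.0582). TSPAN4 and CD82 were higher, by 1.14 and 0.95 against NTKO (adjusted p = 4.19e-05 and 0.00065).

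Of 8 tested transcription factors and cofactors known at leukocyte integrin promoters 6 were higher and 0 lower in TKO than in NTKO, with a median difference of 0.82, beside 0.04 over all genes, and 3 were higher and 0 lower than in WT. SPIB, a B cell factor of the ETS family, averaged 7.06 in TKO, 5.03 in NTKO, where 2 of 3 arrays detected it, and 6.01 in WT (TKO minus NTKO 2.03, limma, adjusted p = 1.35e-05). MYB averaged 11.42, 9.76 and 10.68 in TKO, NTKO and WT (1.66, adjusted p = 8.97e-06), and RUNX1 6.64, 5.14 and 5.65 (2.83-fold, adjusted p = 3.89e-06). Against WT they were higher by 1.04, 0.74 and 0.99 (adjusted p = 0.00686, 0.0136 and 0.000352), MYB not after median centring (adjusted p = 0.221). Without NTKO replicate 2, 7 factors were higher and 1 lower against NTKO and 4 were higher against WT.

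The list counts moved with that array, as did the share over all genes. Without it 48.4% of 10245 genes passed in TKO minus NTKO (23.7% higher and 24.8% lower) and 25.9% in TKO minus WT (11.1% higher and 14.8% lower). Activators and adaptors then numbered 9 higher and 5 lower against NTKO and 6 higher and 7 lower against WT. Kinases and GTPase regulators numbered 4 higher and 5 lower against NTKO and 3 higher and 4 lower against WT. Counter-receptors and ligands gave 1 higher and 2 lower against NTKO and 3 lower against WT, and membrane partners gave 4 higher and 3 lower against NTKO and 3 higher and 1 lower against WT. FERMT2, VCL, CYTH1, ZYX, VAV3, PTK2, VAV1 and BCAR1 kept their sign and their call in both comparisons. So did JAM2, JAM3, CD9, TSPAN4, CD82, SPIB, MYB and RUNX1, each gene by its brightest tested probe.

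**Figure D4:**
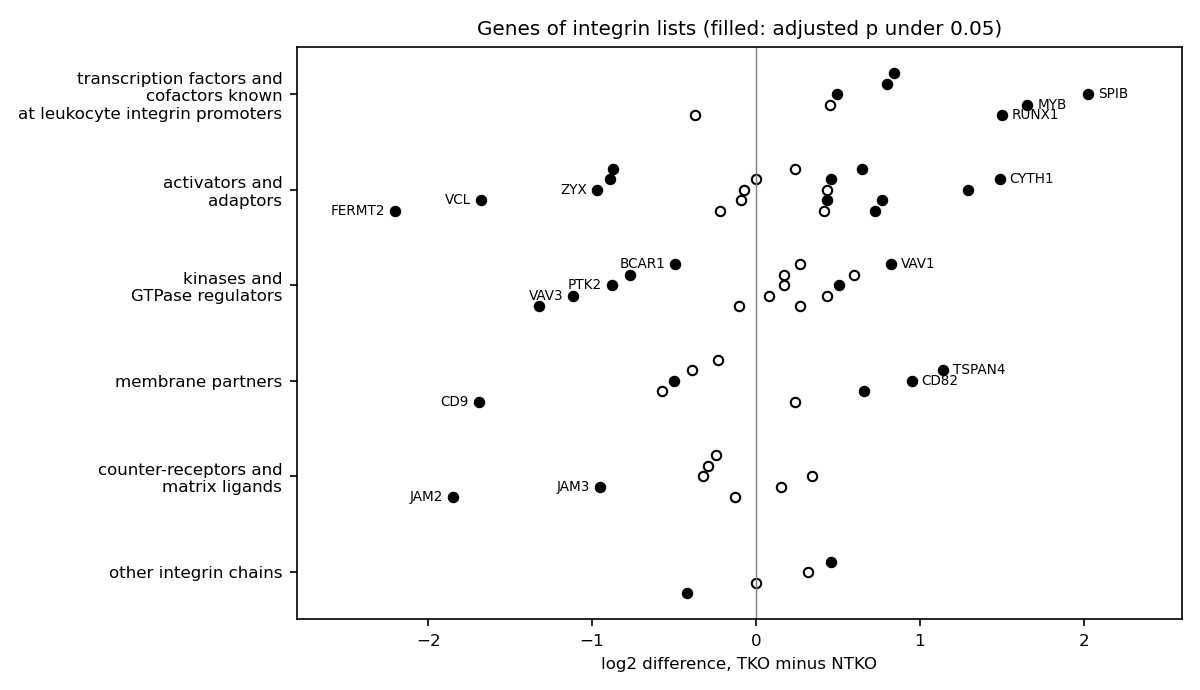
Log2 difference, TKO minus NTKO (x axis), of each tested gene of the 6 integrin lists (rows), filled for an adjusted p under 0.05, with names for genes that passed with the same sign against NTKO and WT and had the largest differences of their list. Points are spread within a row for legibility only. The factors SPIB and MYB lie at 2.03 and 1.66, and FERMT2 lies at -2.20.

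For the 4 members that passed against NTKO, the genes with the most similar level over the 12 arrays were sought by Pearson correlation of log2 intensity. The arrays fall into 4 lines, so the values describe line differences and carry no test. ITGAL was most like CD74 (r = 0.993), HLA-DPA1 (0.989) and HLA-DMA (0.986), genes of MHC class II presentation. ITGA4 was most like MYB (0.984), TNFAIP3 (0.977) and NFKBIE (0.974), the last 2 inhibitors of NF-kB. ITGB1 was most like TIGD2 (0.974), PRKACB (0.962) and KCNS3 (0.960), and ITGA6, near detection, like RNF148 (0.933), SPIRE1 (0.926) and FASTKD1 (0.921). TKO minus NTKO was 2.06 for CD74 and 6.46 for HLA-DPA1, and -0.77 for TIGD2.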

How the data were processed

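RNA from 4 KMS11 lines was measured on 12 arrays of the Illumina HumanWG-6 v3 type, 3 for each line. The authors used GenomeStudio (version not given in the sources used here) to export 48803 probes. The deposited intensity values are linear and background-subtracted, with no scaling across arrays. Each comes with a deposited detection p-value, set against negative controls. The intensity values in the authors' processed table, quantile normalised as far as their percentiles show, served as an alternative. No slide is named, so slide effects were not separated.

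With limma 3.58.1 in R 4.3.3, neqc (offset 16) corrected background, quantile normalised and gave log2 values. Gene names came from the platform annotation, updated through RefSeq: 27578 probes had 1 gene (27541 found in RefSeq), 13 several and 21212 none. The model (lmFit, then eBayes with trend and robust) held a mean for each line and was fitted to 15596 probes with detection p under 0.05 on the 3 arrays of some line. Benjamini-Hochberg adjustment ran over these, with a threshold of 0.05. Contrasts were the mean of TKO1 and TKO2 minus NTKO or WT, NTKO minus WT, and TKO1 minus TKO2. The call in all 4 pairs took the largest p. Lists used the brightest tested probe of a gene (9857 genes). Intervals are 95% intervals of the fit. Where no array of a group detected a probe, the fold is a bound, written as "at least", from the higher of the probe's own signal and the lowest detected signal of each array. Such a probe entered the test only through lines that detected it, so the filter favoured that direction. Alpha minus beta values were compared by exact permutation tests (scipy 1.17.1). The scripts were tested on simulated data.

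From each list up to 4 genes that passed against both lines with the same sign were named, by size of the TKO minus NTKO difference, together with every other integrin chain tested and the 3 genes most like each called member. Members and lists were chosen with earlier results of these data known.

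The study's methods describe a t-test at p under 0.002, tried as an alternative. They give more control arrays than the 3 of NTKO, so NTKO and WT were compared separately. Replicate numbers were not used to pair the arrays in the main model. Deviations of same-numbered arrays from different lines correlated at -0.142 to 0.5, with 6 of 18 over 0.1. Those of differently numbered arrays correlated at -0.504 to 0.183, with 5 of 36 over 0.1. Some same-numbered arrays may thus share a source of spread, which was not tested. Further alternatives were no background correction, median centring, cyclic loess, the authors' values, offset 50, no filter or a stricter one, 1 probe per gene, the compared lines alone, no trend, a replicate block, the mean of all tested probes, and leaving out each array. List counts without NTKO replicate 2 were added after seeing the data.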

Additional observations from a re-analysis of the deposited data

Results flagged for a closer look

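The lowest ITGAL value among the 6 TKO arrays, 7.07 on TKO1 replicate 1, lay apart from the other 5. Its gap to the next array was 0.642 of the range of the 6, above the 95% limit for 6 values. It was the only one of 10 probes so marked, and chance marks about 1 in 20. ITGAL without this array stayed higher in TKO against both NTKO and WT.

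The TKO difference of ITGAL was larger against NTKO than against WT. The difference between the 2, which is NTKO minus WT, was -0.96 (limma, adjusted p = 0.00467), and all 3 NTKO arrays lay below all 3 WT arrays.

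The second ITGA6 probe, which was not tested, was detected on NTKO replicate 3 at an exported intensity of 17.2. It was the only detected value among 72 of the 6 untested probes, and no TKO or WT array detected it.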

How the results depend on the processing

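Counts of member probes passing were 5 in TKO minus NTKO and stayed between 4 and 6 under every alternative. In TKO minus WT they were 5 and fell to 1 with the methods' t-test at its own threshold (5 after Benjamini-Hochberg). Leaving out 1 array gave 2 to 5 probes there, with 2 without WT replicate 1 and 3 without replicate 2 or 3. NTKO minus WT gave 1 to 4 and all 4 pairs gave 1 to 3 on leaving out an array, the higher counts without NTKO replicate 2, where 32.8% and 6.04% of all probes passed. Without that array NTKO minus WT added ITGA4, ITGAV and the brighter ITGB1 probe (0.45, adjusted p = 0.0346). Pairs with unequal change numbered 3 against NTKO and 4 against WT. Leaving out an array gave 0 to 3 and 0 to 4, and a replicate block, with permutation within replicate numbers, gave 0 for both. These designs allow few splits, so a lost call there says nothing on stability. The block changed no call of a single member probe.

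ITGAL and ITGA4 kept sign and call in both TKO comparisons under all 24 alternatives, with TKO minus NTKO from 1.81 to 3.29 and from 1.19 to 2.05. Against NTKO the brighter ITGB1 probe did so under all 24 and the dimmer under the 23 that tested it. Against WT the dimmer ITGB1 probe was lost with no filter (-0.45, adjusted p = 0.112). Reversals touched differences that never passed. In TKO minus NTKO, ITGB2 turned to -0.0038 with cyclic loess and ranged from -0.0088 to 0.12 on leaving out an array, and ITGB7 turned to -0.22 with median centring and -0.0766 with cyclic loess and ranged from -0.0724 to 0.11 on leaving out an array. In TKO minus WT, median centring turned ITGAV to -0.0572 and ITGB7 to -0.34, and leaving out an array gave -0.0396 to 0.26 and -0.0418 to 0.103. The ITGAE and ITGB7 change against NTKO turned to 0.0455 with median centring. The ITGA6 and ITGB1 change ranged from -0.0355 to 0.512 against NTKO on leaving out an array. Against WT it turned to 0.0114 with median centring and 0.13 with offset 50 and ranged from -0.44 to 0.0059 on leaving out an array. ITGAV and ITGB1 passed against NTKO with the authors' values (0.40) and offset 50 (0.43, adjusted p = 0.0357 each). The list of other chains gave 2 calls against WT without NTKO replicate 2, in place of 1. The cause of these changes was not tested. ITGAL in NTKO, ITGA6 in TKO and ITGB2 throughout lay near background, where neqc compresses differences. ITGAL in WT and ITGA4 in NTKO, which averaged 5.60 and 5.65, lay at the level of ITGB2, so their folds may be understated too.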
